A study of Homo sapiens with 12 samples.

Results

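The transcripts described here encode proteins that build ribosomes in the nucleolus. A list of 42 human genes was used, sorted by the step of ribosome production in which each acts: RNA polymerase I transcription, the small nucleolar ribonucleoproteins (snoRNPs), the small subunit, the large subunit, and several steps at once. A probe counted when the platform annotation gave it exactly 1 gene symbol, that symbol was on the list, and its detection p-value was under 0.01 on at least 3 of 12 arrays. The array carried 63 probes for 39 of the 42 genes, and 57 probes for 37 genes passed, out of 14441 passing probes for 10873 genes in all. GNL3, EBNA1BP2 and WDR43 had no probe, and NPM1 and UTP20 had 1 and 3 probes that were detected on 0 arrays. Of the 37 measured genes, 36 were detected on all 12 arrays and POLR1A on 4.

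The cells were OVCAR-3, an established line from a human high-grade serous ovarian carcinoma, and the title of the series frames the work around OCT4, the mitotic spindle and the RB pathway. Each of 4 groups of 3 samples was transfected with siRNA by Lipofectamine RNAiMAX: control siRNA, Oct4 siRNA (siOct4, gene POU5F1), Ccnf siRNA plus Nipp1 siRNA (siCcnf+siNipp1, genes CCNF and PPP1R8), or Rb1 siRNA (siRb1, gene RB1). Total RNA was taken 72 hours later and hybridised to Illumina HT-12 bead arrays. Every group is 1 line treated transiently, and siRNA sequences and doses are not used here. Samples of a group are labelled as biological replicates, with no mention of separate cultures, so the p-values measure the spread between these samples, which may be partly technical.

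Ribosome production starts in the nucleolus, where RNA polymerase I copies the ribosomal DNA into a long precursor RNA. snoRNPs then place methyl groups and pseudouridines on the precursor, the small subunit processome folds and cleaves one part of it, and separate assembly factors mature the part that enters the large subunit. In growing tumour cells many of these genes are driven by MYC, which binds the E-box CACGTG, while the RB protein is known to bind the polymerase I factor UBTF and restrain ribosomal RNA synthesis.

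The E-box was therefore searched in the promoters of these genes, taken from RefSeq on build GRCh38.p14 as the 250 bases before and 50 bases after the annotated transcript start. Entries were found for 36 of the 42 genes, and NOP58, NOLC1, RRP12, BOP1, RRS1 and RRP1B have none in the table used. Shown here are the 60 bases before and 30 after the start for the 4 genes with the smallest F-test p-values among the measured genes holding CACGTG, each 5′ to 3′ on the gene's strand with the E-box in capitals. RRP9 lies at chr3:51941875-51941964 on the minus strand, FBL at chr19:39846350-39846439 on the minus strand, MRTO4 at chr1:19251745-19251834 on the plus strand and UTP4 at chr16:69132589-69132678 on the plus strand.
RRP9: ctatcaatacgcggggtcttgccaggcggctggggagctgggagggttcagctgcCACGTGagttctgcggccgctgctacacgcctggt
FBL: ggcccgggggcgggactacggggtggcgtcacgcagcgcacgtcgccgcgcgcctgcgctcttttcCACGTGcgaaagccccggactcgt
MRTO4: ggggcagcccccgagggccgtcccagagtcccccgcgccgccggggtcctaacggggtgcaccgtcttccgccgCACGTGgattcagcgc
UTP4: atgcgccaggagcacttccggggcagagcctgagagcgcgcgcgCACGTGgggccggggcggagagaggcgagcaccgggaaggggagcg
The first base of the E-box lay 5 bases before the start in RRP9, 16 before it in UTP4, at base 7 of the transcript in FBL and at base 15 in MRTO4.

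The arrays detected 16186 to 17351 of 47322 probes each, and arrays of 1 group correlated at 0.980 to 0.990 over the 10873 genes tested. The POU5F1 transcript averaged 10.58 ± 0.099 (SD, n = 3) in control on the normalized log2 scale and was undetected on all 3 siOct4 arrays. CCNF averaged 11.91 in control and 10.36 with siCcnf+siNipp1, and it was also lower with siOct4 at 10.95 (adjusted p 0.0124, limma). POU5F1 was higher than control with siCcnf+siNipp1 by 1.03 on the log2 scale (adjusted p 0.00267) and stood at 0.80 with siRb1 (adjusted p 0.0524). RB1 was undetected on all 3 siRb1 arrays and was lower with siOct4 at -0.61 (adjusted p 0.0405). No value for PPP1R8 is given here, so the level of its knockdown is not known. Of 10 markers of serous ovarian carcinoma, 8 were detected on at least 3 arrays and 5 (PAX8, EPCAM, KRT7, KRT18 and CLDN3) on all 12, while WT1 was detected on 0. Of 4 leukocyte markers with a probe, CD68 was detected on 12 arrays, CD14 on 1, and PTPRC and CD3E on 0. Of 4 endothelial markers, CDH5 and VWF were detected on 12 arrays and PECAM1 and KDR on 0, and of 6 fibroblast markers COL1A1 was detected on 7 and the other 5 on 0. The part of these markers in the results was not tested. RNA came from bulk cultures, so fewer cells of a kind and less RNA per cell cannot be told apart.

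After both siOct4 and siCcnf+siNipp1, the ribosome biogenesis transcripts that passed the test were all lower than in control. With siOct4, 11 of 37 fell (29.7%) and 0 rose, while among all genes tested 16.6% were called lower and 17.6% higher. With siCcnf+siNipp1, 16 of 37 fell (43.2%) and 0 rose, against 19.3% lower and 19% higher among all genes. The 16 include POLR1A, which passed the detection filter only through other groups, so lower was the only call open to it. With siRb1, 0 of 37 passed in either direction, against 1.74% lower and 2.96% higher among all genes, a split that became 2.25% and 1.49% when arrays were scaled by their medians. The median log2 difference of the 37 genes was -0.25 with siOct4, -0.29 with siCcnf+siNipp1 and -0.18 with siRb1, beside -0.0099, 0.0014 and 0.0014 over all genes tested. With median scaling the siRb1 median was -0.31, beside -0.10 over all genes. It was then -0.33 with siOct4 and -0.41 with siCcnf+siNipp1, beside -0.03 and -0.05 over all genes. Counted by values alone, all 3 siOct4 arrays lay below all 3 control arrays for 17 genes and above them for 1, beside 22.3% and 23.8% of all genes tested. The same counts were 27 and 2 with siCcnf+siNipp1, beside 25.7% and 25.4%, and 11 and 2 with siRb1, beside 13.3% and 14.1%. All calls are limma contrasts at a Benjamini-Hochberg adjusted p under 0.05 over all genes, and the 3 comparisons share the same 3 control arrays. The genes were listed with earlier results of these data known, so the shares describe the list and are no independent test of it.

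**Figure D1:**
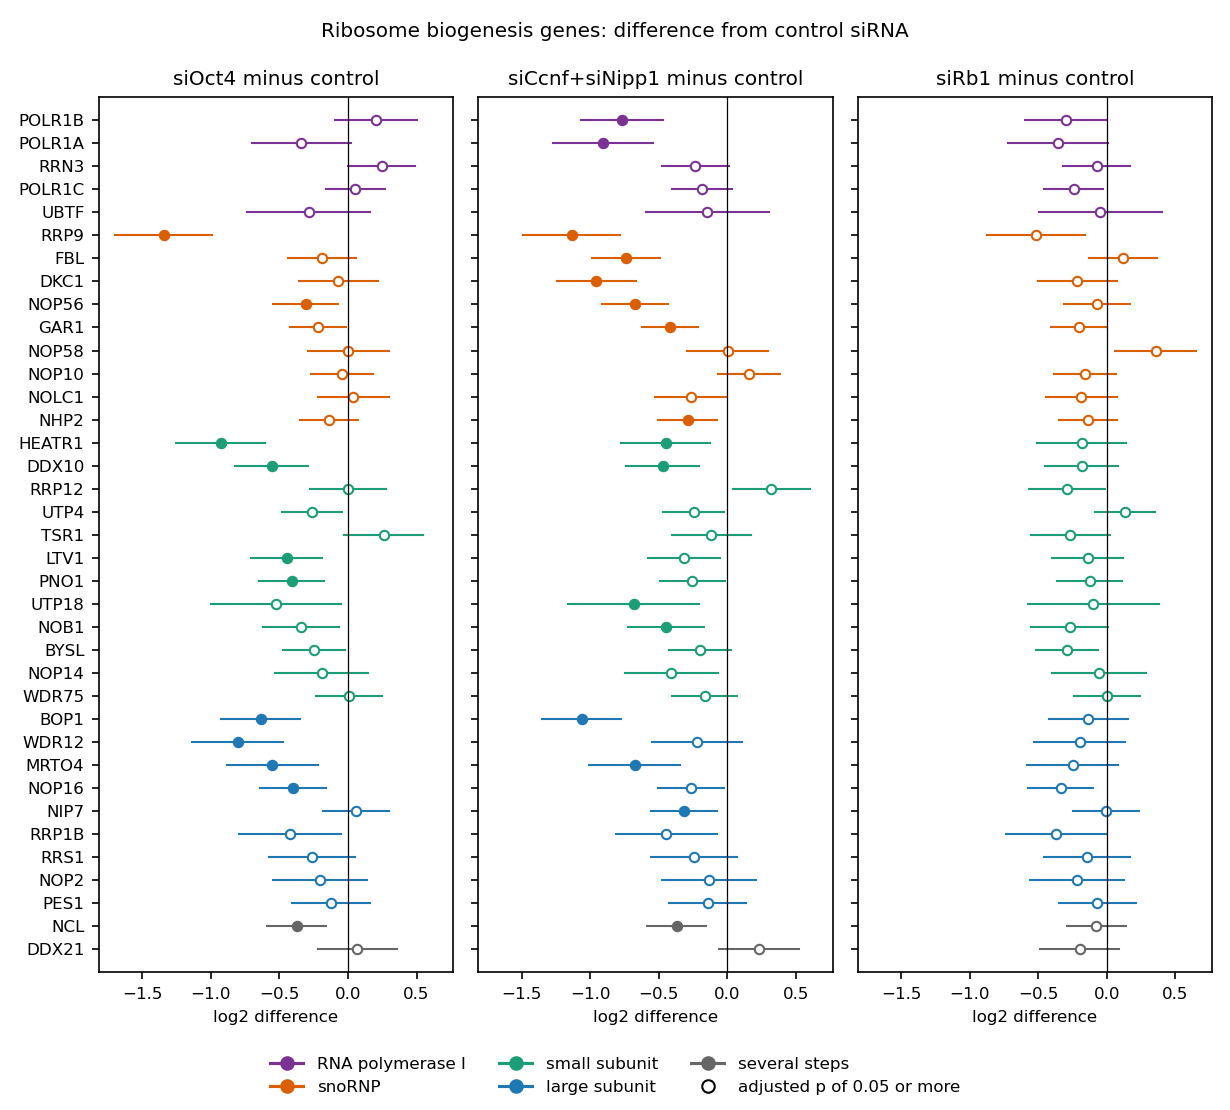
Each row is 1 of the 37 measured ribosome biogenesis genes and each panel 1 knockdown. Points give the log2 difference from control, bars its 95% interval, colours the step, and open points an adjusted p of 0.05 or more. Filled points lie to the left of 0 in the siOct4 panel (11) and the siCcnf+siNipp1 panel (16), and the siRb1 panel has none.

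With the replicate number as a block, siOct4 gave 16 lower and 0 higher, siCcnf+siNipp1 gave 23 lower and 1 higher (RRP12), and siRb1 gave 1 lower (RRP9) and 1 higher (NOP58). Under the same block 21.3% of all genes were lower and 22.4% higher with siOct4, 24.4% and 23.7% with siCcnf+siNipp1, and 4.46% and 6.23% with siRb1. Without control replicate 3 the siOct4 count was 7 (all lower), beside 12.4% of all genes.

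Of the 37 genes, 7 fell in both knockdowns: RRP9, NOP56, HEATR1, DDX10, BOP1, MRTO4 and NCL. Another 9 passed the test against control with siCcnf+siNipp1 and not with siOct4 (POLR1A, POLR1B, DKC1, FBL, GAR1, NHP2, UTP18, NOB1 and NIP7), and 4 passed with siOct4 and not with siCcnf+siNipp1 (WDR12, LTV1, PNO1 and NOP16). The remaining 17 passed in neither. This sorting is of the fit without the block. With it, LTV1, PNO1 and NOP16 also passed with siCcnf+siNipp1 (adjusted p 0.0463, 0.0305 and 0.0467, limma) and UTP18 and NOB1 with siOct4 (0.0241 and 0.0224). UTP4 and RRS1 then passed in both, BYSL with siOct4, and NOP14 and RRP1B with siCcnf+siNipp1, all lower. A moderated F test over the 4 groups called 23 of 37 genes (62.2%), close to the 58.2% of all genes tested that it called, and 15 genes without siOct4 replicate 2.

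**Figure D2:**
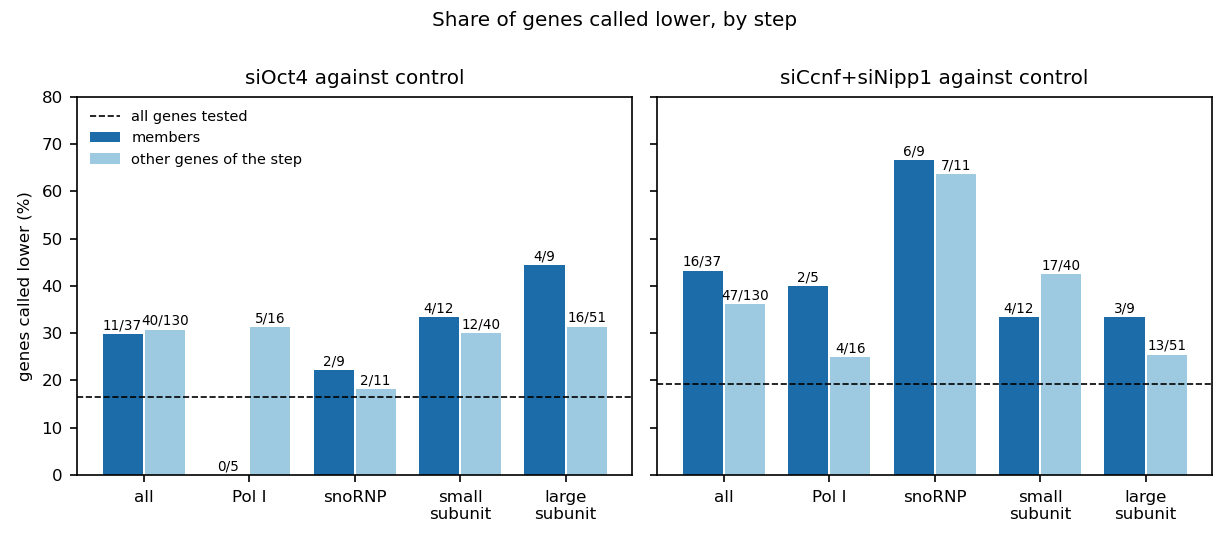
Bars give the percent of tested genes called lower than control at an adjusted p under 0.05, for all steps together and for 4 steps, for the listed genes and for other genes of the same step, with counts above each bar and the share of all genes as a dashed line. The genes that act at several steps have no bars of their own. With siOct4 0 of 5 listed RNA polymerase I genes and 4 of 9 large subunit genes were lower, and with siCcnf+siNipp1 6 of 9 snoRNP genes were lower. The dashed line lies at 16.6% with siOct4 and 19.3% with siCcnf+siNipp1.

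RNA polymerase I transcription was measured by 5 genes, and 2 of them, POLR1B and POLR1A, fell with siCcnf+siNipp1 while 0 passed with siOct4. POLR1A was undetected with siCcnf+siNipp1, so lower was the only call open to it there. Among all genes tested 19.3% were called lower with siCcnf+siNipp1 and 16.6% with siOct4. The median log2 difference of the 5 was 0.05 with siOct4, -0.23 with siCcnf+siNipp1 and -0.24 with siRb1. POLR1B, the second-largest subunit of the polymerase, read 8.11, 8.46 and 8.39 on the control arrays and 7.69, 7.58 and 7.37 with siCcnf+siNipp1. It read 8.57, 8.55 and 8.44 with siOct4 and 7.91, 8.25 and 7.90 with siRb1. The siCcnf+siNipp1 arrays were the 3 lowest of the 12, and the siOct4 values overlapped control. The log2 difference from control was -0.77 (SE 0.14, adjusted p 0.00119, limma) with siCcnf+siNipp1 and 0.20 (SE 0.14, adjusted p 0.285) with siOct4. A second POLR1B probe gave -0.85 with siCcnf+siNipp1.

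POLR1A, the largest subunit, lay near background. It was detected on control replicates 2 and 3, siOct4 replicate 1 and siRb1 replicate 2, and on 0 of 3 siCcnf+siNipp1 arrays. Its values were 6.53, 6.83 and 7.30 in control, 6.66, 6.35 and 6.63 with siOct4, 5.99, 5.98 and 5.97 with siCcnf+siNipp1, and 6.51, 6.58 and 6.49 with siRb1. The siCcnf+siNipp1 arrays were again the 3 lowest. The signal was at least 1.17-fold lower than control (adjusted p 0.00143, limma), a bound set by the lowest detected signals of the siCcnf+siNipp1 arrays. POLR1A passed the detection filter only through the other groups, so this p-value is no independent support. Without control replicate 1, POLR1A was also called lower with siOct4 (adjusted p 0.0279).

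RRN3, which carries the polymerase to the promoter, read 10.07, 10.40 and 10.14 in control, 10.37, 10.48 and 10.50 with siOct4, and 10.03, 9.99 and 9.88 with siCcnf+siNipp1. Neither knockdown passed against control, at 0.25 (adjusted p 0.11, limma) and -0.23 (adjusted p 0.12), on opposite sides of it. RRN3 passed as higher with siOct4 when control replicate 2 was left out (adjusted p 0.0428). POLR1C, a subunit shared with RNA polymerase III, differed by 0.05 and -0.18, and UBTF, the factor that binds ribosomal DNA, by -0.29 and -0.15, with 0 calls against control.

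Of the snoRNP genes, 6 of 9 were lower after siCcnf+siNipp1 (DKC1, FBL, RRP9, NOP56, GAR1 and NHP2) and 2 of 9 after siOct4 (RRP9 and NOP56). These counts are 66.7% and 22.2%, beside 19.3% and 16.6% of all genes tested called lower. DKC1, the pseudouridine synthase of box H/ACA particles, read 13.05, 12.87 and 12.94 in control and 12.17, 11.85 and 11.98 with siCcnf+siNipp1. It read 13.10, 12.72 and 12.83 with siOct4 and 12.87, 12.68 and 12.66 with siRb1. All 3 siCcnf+siNipp1 arrays lay below the other 9. The difference from control was -0.96 (SE 0.13, adjusted p 0.000246, limma) with siCcnf+siNipp1 and -0.07 with siOct4, where the 95% interval ran from -0.36 to 0.22.

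Of its partners in the H/ACA particle, GAR1 and NHP2 fell with siCcnf+siNipp1 and NOP10 did not pass. GAR1, which helps release the modified RNA, read 12.30, 12.19 and 12.24 in control and 11.79, 11.84 and 11.85 with siCcnf+siNipp1, a difference of -0.42 (SE 0.09, adjusted p 0.00457, limma). With siOct4 it read 11.99, 11.98 and 12.09 and with siRb1 at most 12.11, in both cases below every control array and short of the threshold (adjusted p 0.0889 and 0.269). Other GAR1 probes gave differences from -0.46 to -0.67 with siCcnf+siNipp1. NHP2, a core protein of the particle, differed by -0.29 with siCcnf+siNipp1 (adjusted p 0.0357). It did not pass without control replicate 1 or 3 or any of the 3 siCcnf+siNipp1 arrays or siRb1 replicate 3 (adjusted p 0.0504 to 0.111). NOP10, the smallest core protein, differed from control by -0.05 with siOct4, 0.16 with siCcnf+siNipp1 and -0.16 with siRb1, none of which passed.

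In the box C/D particles, which methylate the precursor, FBL and NOP56 fell with siCcnf+siNipp1 while NOP58 stayed within 0.01 of control. FBL, the methyltransferase, read 13.56, 13.74 and 13.66 in control, 13.63, 13.38 and 13.38 with siOct4, 13.05, 12.79 and 12.91 with siCcnf+siNipp1, and 13.79, 13.72 and 13.80 with siRb1. The siCcnf+siNipp1 arrays lay below the other 9, a difference from control of -0.74 (SE 0.11, adjusted p 0.000476, limma). With siOct4 the difference was -0.19 (adjusted p 0.222) and the values overlapped control.

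NOP56, a scaffold protein of the same particle, read 13.77, 13.72 and 13.59 in control, 13.52, 13.23 and 13.39 with siOct4, and 13.11, 13.04 and 12.90 with siCcnf+siNipp1. The 3 groups did not overlap and stood in that order. The difference was -0.67 (SE 0.11, adjusted p 0.000708, limma) with siCcnf+siNipp1 and -0.31 (SE 0.11, adjusted p 0.0473) with siOct4. The siOct4 call was lost under 13 of 21 alternatives, among them leaving out any 1 control array, siOct4 replicate 2 or 3, siCcnf+siNipp1 replicate 2 or any 1 siRb1 array (adjusted p 0.0572 to 0.158).

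NOP58, the other scaffold protein of the particle, read 12.71, 12.73 and 12.47 in control and 13.14, 12.91 and 12.92 with siRb1. All 3 siRb1 arrays lay above all 3 control arrays, at a difference of 0.35 (SE 0.13, adjusted p 0.174, limma), and the block on replicate number gave an adjusted p of 0.0375. With siOct4 and siCcnf+siNipp1 the difference from control rounded to 0.00 in each.

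RRP9, a component of the U3 snoRNP that guides the first cleavages, had the lowest values relative to control of the 9. It read 10.26, 10.54 and 10.25 in control, 9.02, 9.34 and 8.65 with siOct4, 9.28, 9.23 and 9.12 with siCcnf+siNipp1, and 9.73, 9.99 and 9.77 with siRb1. Every knockdown array lay below every control array, and the siRb1 arrays lay between control and the other knockdowns. The difference was -1.34 (SE 0.16, adjusted p 0.000121, limma) with siOct4 and -1.14 (SE 0.16, adjusted p 0.000305) with siCcnf+siNipp1. With siRb1 it was -0.52 (SE 0.16, adjusted p 0.0977), and the block gave 0.0247. NOLC1, a nucleolar chaperone of snoRNPs, differed by 0.04 with siOct4 and -0.27 with siCcnf+siNipp1 and passed in neither.

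**Figure D3:**
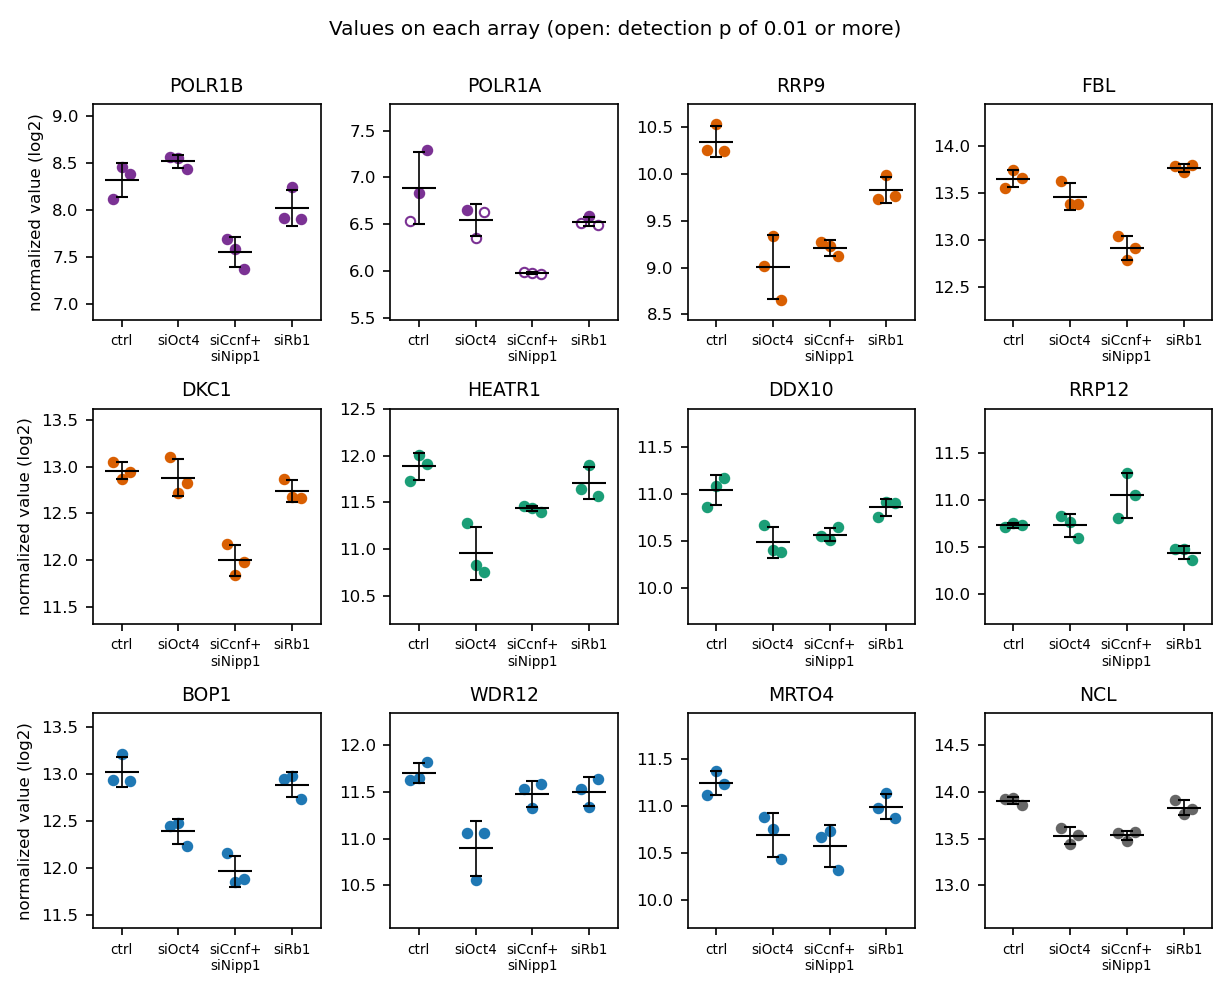
Each panel shows 1 gene on all 12 arrays, with the normalized log2 value on the vertical axis, a point per array and open points where the probe was not detected. RRP9 separates siOct4 and siCcnf+siNipp1 from control, FBL and DKC1 separate siCcnf+siNipp1 from the other groups, and WDR12 separates siOct4.

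Small subunit factors fell in similar number in both knockdowns, 4 of 12 with siOct4 (HEATR1, DDX10, LTV1 and PNO1) and 4 of 12 with siCcnf+siNipp1 (HEATR1, DDX10, UTP18 and NOB1). Each count is 33.3%, beside 16.6% of all genes tested called lower with siOct4 and 19.3% with siCcnf+siNipp1. The median difference of the 12 was -0.30 with siOct4 and -0.28 with siCcnf+siNipp1. HEATR1, a processome protein also needed for polymerase I transcription, read 11.73, 12.01 and 11.91 in control, 11.28, 10.83 and 10.76 with siOct4, 11.46, 11.44 and 11.40 with siCcnf+siNipp1, and 11.65, 11.90 and 11.57 with siRb1. The siOct4 arrays were the 3 lowest. The difference was -0.93 (SE 0.15, adjusted p 0.000664, limma) with siOct4 and -0.45 (SE 0.15, adjusted p 0.0314) with siCcnf+siNipp1. The siCcnf+siNipp1 call was lost without control replicate 2 or 3 or any 1 siCcnf+siNipp1 array (adjusted p 0.0551 to 0.104).

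DDX10, an RNA helicase of the processome, read 10.86, 11.09 and 11.17 in control, 10.67, 10.40 and 10.38 with siOct4, 10.55, 10.51 and 10.65 with siCcnf+siNipp1, and 10.75, 10.91 and 10.91 with siRb1. Both lower groups lay below all control arrays and overlapped each other. The differences were -0.56 (SE 0.12, adjusted p 0.00431, limma) with siOct4 and -0.47 (SE 0.12, adjusted p 0.00954) with siCcnf+siNipp1, kept under all alternatives tried.

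RRP12 went the other way with siCcnf+siNipp1. This export factor of both subunits read 10.71, 10.76 and 10.73 in control, 10.83, 10.77 and 10.60 with siOct4, 10.81, 11.29 and 11.05 with siCcnf+siNipp1, and 10.48, 10.48 and 10.36 with siRb1. All siCcnf+siNipp1 arrays were above, and all siRb1 arrays below, every control array. The difference was 0.32 (SE 0.13, adjusted p 0.0648, limma) with siCcnf+siNipp1, 0.0423 with the block and 0.0158 without siCcnf+siNipp1 replicate 1.

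LTV1 and PNO1, which act late in small subunit maturation, differed by -0.45 (adjusted p 0.0131, limma) and -0.41 (adjusted p 0.0126) with siOct4. LTV1 read 11.73, 11.79 and 11.86 in control and 11.50, 11.32 and 11.22 with siOct4, and PNO1 read 10.31, 10.41 and 10.64 against 10.05, 10.00 and 10.09. Neither gene's siOct4 values reached its control values. With siCcnf+siNipp1 the differences were -0.31 (adjusted p 0.0564, block 0.0463) and -0.26 (adjusted p 0.0844, block 0.0305). Without control replicate 3 the siOct4 calls of LTV1 and PNO1 were lost (adjusted p 0.0509 and 0.0623), and without siOct4 replicate 3 that of LTV1 (0.05, just over the threshold). Without siOct4 replicate 1 or siRb1 replicate 1 LTV1 passed with siCcnf+siNipp1 (0.0476 and 0.0445).

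UTP18 and NOB1 passed with siCcnf+siNipp1. UTP18, a processome protein, differed by -0.68 (SE 0.22, adjusted p 0.0273, limma) and by -0.53 with siOct4 (adjusted p 0.0834, block 0.0241). Its call was lost without any 1 control array or siCcnf+siNipp1 replicate 2 or 3 (adjusted p 0.0506 to 0.116), and without siCcnf+siNipp1 replicate 1 UTP18 passed with siOct4 (0.0486). NOB1, the endonuclease that makes the final 18S rRNA end, read 10.21, 10.01 and 10.12 in control, 9.96, 9.73 and 9.62 with siOct4 and 9.85, 9.58 and 9.57 with siCcnf+siNipp1, below all control arrays in both. It differed by -0.45 (adjusted p 0.0159) with siCcnf+siNipp1 and -0.34 (adjusted p 0.0561, block 0.0224) with siOct4. NOB1 lost the first call without control replicate 1 or siCcnf+siNipp1 replicate 2 or 3 (adjusted p 0.0583 to 0.0589) and gained the second without siOct4 replicate 1 or siCcnf+siNipp1 replicate 1 (0.024 and 0.0468).

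Of the other 5 small subunit genes, none passed against control. UTP4 differed by -0.26 with siOct4 (adjusted p 0.0636, block 0.0344, limma) and -0.25 with siCcnf+siNipp1 (adjusted p 0.0734, block 0.0408, and 0.0437 without siCcnf+siNipp1 replicate 1). NOP14 differed by -0.41 with siCcnf+siNipp1 (adjusted p 0.0582, block 0.033, and 0.0281 and 0.0469 without siCcnf+siNipp1 replicate 1 and siOct4 replicate 2), and BYSL by -0.25 with siOct4 (adjusted p 0.0842, block 0.0337). WDR75, a processome protein that binds early, differed by 0.01 and -0.17. TSR1, a GTPase-like late factor, stood at 0.26 with siOct4 and -0.12 with siCcnf+siNipp1.

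The large subunit was led by BOP1 and WDR12, which with PES1 form the PeBoW complex that processes the precursor of the large subunit rRNAs. The 3 transcripts did not follow a single pattern. BOP1 read 12.94, 13.21 and 12.92 in control, 12.45, 12.48 and 12.24 with siOct4, 12.15, 11.85 and 11.88 with siCcnf+siNipp1, and 12.95, 12.98 and 12.74 with siRb1. The siCcnf+siNipp1 arrays were the 3 lowest and the siOct4 arrays came next, with no overlap between these groups or with control. The difference was -0.64 (SE 0.13, adjusted p 0.00326, limma) with siOct4 and -1.06 (SE 0.13, adjusted p 0.000135) with siCcnf+siNipp1.

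WDR12 read 11.63, 11.65 and 11.82 in control, 11.06, 10.56 and 11.06 with siOct4, 11.53, 11.32 and 11.59 with siCcnf+siNipp1, and 11.53, 11.34 and 11.64 with siRb1. The siOct4 arrays lay below the other 9. The difference was -0.80 (SE 0.15, adjusted p 0.00183, limma) with siOct4, and a second WDR12 probe gave -0.81. With siCcnf+siNipp1 it was -0.22, with a 95% interval from -0.55 to 0.11.

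PES1 read 10.62, 10.87 and 10.83 in control, 10.64, 10.69 and 10.61 with siOct4, 10.67, 10.80 and 10.41 with siCcnf+siNipp1, and 10.82, 10.53 and 10.76 with siRb1. All groups overlapped, and the differences from control were -0.12 (95% interval from -0.41 to 0.16) and -0.14 for the first 2 knockdowns. RRN3, GAR1, NOP56, NOP58, LTV1, PNO1, NOB1 and PES1 were given array by array after their values had been seen.

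MRTO4, which holds the place of the stalk proteins on the immature large subunit, read 11.12, 11.38 and 11.24 in control, 10.89, 10.76 and 10.43 with siOct4, 10.67, 10.73 and 10.31 with siCcnf+siNipp1, and 10.98, 11.14 and 10.87 with siRb1. Both of the first 2 knockdowns lay below all control arrays. The differences were -0.55 (SE 0.15, adjusted p 0.0151, limma) and -0.67 (SE 0.15, adjusted p 0.00459). The siOct4 call for MRTO4 was lost without control replicate 2 (adjusted p 0.0576) or siOct4 replicate 3 (0.0617).

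NOP16, an assembly factor of the large subunit, passed with siOct4 at -0.40 (adjusted p 0.0147, limma) and not with siCcnf+siNipp1 at -0.27 (adjusted p 0.0755, block 0.0467). Its siOct4 call was lost without control replicate 3 or siOct4 replicate 2 (adjusted p 0.0681 and 0.0562), and a second NOP16 probe gave -0.55. NIP7 passed with siCcnf+siNipp1 at -0.32 (adjusted p 0.039), and failed to pass without control replicate 1 or 3, any 1 siCcnf+siNipp1 array or siRb1 replicate 2 (adjusted p 0.0502 to 0.121). RRP1B differed by -0.42 with siOct4 (adjusted p 0.0734; 0.0127 without siOct4 replicate 1 and 0.05, just under the threshold, without siCcnf+siNipp1 replicate 2) and -0.45 with siCcnf+siNipp1 (adjusted p 0.0552, block 0.0456). Without siOct4 replicate 1, siCcnf+siNipp1 replicate 1 or siOct4 replicate 2, RRP1B passed with siCcnf+siNipp1 (adjusted p 0.0257 to 0.0472). RRS1 differed by -0.26 and -0.24 (block adjusted p 0.0309 and 0.0382), and NOP2, an rRNA cytosine methyltransferase, by -0.21 and -0.14.

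Of the 2 measured proteins that act at several steps, NCL fell in both knockdowns and DDX21 passed in none of the comparisons with control. NCL, nucleolin, read 13.92, 13.93 and 13.86 in control, 13.62, 13.44 and 13.54 with siOct4, 13.56, 13.48 and 13.57 with siCcnf+siNipp1, and 13.91, 13.76 and 13.81 with siRb1. The lower groups overlapped each other and lay below all control and siRb1 arrays. The differences were -0.38 (SE 0.10, adjusted p 0.0112, limma) and -0.37 (SE 0.10, adjusted p 0.0105), and a second NCL probe gave -0.64 and -0.48. DDX21, a helicase linking polymerase I and II transcription to rRNA processing, read 12.64, 12.46 and 12.79 in control, 12.73, 12.58 and 12.79 with siOct4, 12.70, 12.82 and 13.07 with siCcnf+siNipp1, and 12.44, 12.29 and 12.56 with siRb1. These ranges overlapped control in every knockdown.

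With siRb1 the log2 differences from control ran from -0.52 to 0.35. Of 37 genes, 33 had a negative log2 difference, as had 5416 of all 10873 genes tested, and limma called 0 at an adjusted p under 0.05. At an unadjusted p under 0.05 there were 6: POLR1C, NOP58, RRP9, RRP12, BYSL and NOP16, of which NOP58 was higher and the others lower. Their adjusted p-values ran from 0.0977 for RRP9 to 0.238 for RRP12. By step the median was -0.24 for RNA polymerase I, -0.16 for snoRNP, -0.16 for small subunit and -0.20 for large subunit genes, with no step apart from the rest. RRP9 alone reached 0.05 when background correction was left out (adjusted p 0.05).

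siOct4 and siCcnf+siNipp1 were then compared with each other directly. Of 37 genes, 9 were higher (24.3%) and 2 lower (5.41%) with siOct4 than with siCcnf+siNipp1, beside 17.9% higher and 17.2% lower among all genes tested. The 9 were POLR1A, POLR1B, RRN3, DKC1, NOP56, FBL, TSR1, BOP1 and NIP7. POLR1A was undetected with siCcnf+siNipp1 and passed the detection filter only through the other groups, so its call here is no independent support. Counting it, 3 of 5 RNA polymerase I genes and 3 of 9 snoRNP genes were higher. The further RNA polymerase I genes described below did not share this, with 4 of 16 higher, 2 lower and a median log2 difference of -0.0023. Of the further snoRNP genes, 5 of 11 were higher and 0 lower, with a median of 0.20. HEATR1 and WDR12 were the 2 that were lower with siOct4. The total of 11 became 6 or 7 without any 1 siOct4 array or siCcnf+siNipp1 replicate 2, and 5 without siCcnf+siNipp1 replicate 3.

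POLR1B differed by 0.97 (95% interval 0.67 to 1.27, adjusted p 0.000265, limma), DKC1 by 0.88 (0.60 to 1.17, adjusted p 0.000363), FBL by 0.55 (0.30 to 0.80, adjusted p 0.00306) and RRN3 by 0.48 (0.24 to 0.72, adjusted p 0.00616). WDR12 differed by -0.58 (-0.91 to -0.25, adjusted p 0.0108). These 5 differences were called under all 21 alternatives, which for comparisons between knockdowns were added after seeing the data.

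The other 6 each lost the call somewhere. HEATR1, at -0.48 (-0.80 to -0.15, adjusted p 0.0255, limma), lost it without any 1 siOct4 or siCcnf+siNipp1 array except siOct4 replicate 1 (adjusted p 0.055 to 0.0915). BOP1, at 0.43 (0.14 to 0.71, adjusted p 0.0256), lost it without siOct4 replicate 1 or 2 or siCcnf+siNipp1 replicate 2 or 3 (adjusted p 0.0662 to 0.0862). NOP56, at 0.36 (0.12 to 0.60, adjusted p 0.0235), lost it without siOct4 replicate 1 or 3 or siCcnf+siNipp1 replicate 2 or 3 (adjusted p 0.0501 to 0.0872), and NIP7, at 0.37 (0.13 to 0.61, adjusted p 0.0199), without siOct4 replicate 1 or 2 or siCcnf+siNipp1 replicate 3 (adjusted p 0.057 to 0.0698). TSR1, at 0.38 (0.09 to 0.67, adjusted p 0.0429), lost it under 10 alternatives, among them leaving out any 1 siOct4 or siCcnf+siNipp1 array or siRb1 replicate 3 (adjusted p 0.0575 to 0.111). POLR1A (adjusted p 0.0199) lost it without siOct4 replicate 1 or 3 or siCcnf+siNipp1 replicate 3 (adjusted p 0.0534 to 0.0599), and its values near background give no fold.

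Several genes that fell against control did not pass between these knockdowns. RRP9 differed by -0.21 (95% interval -0.56 to 0.15, adjusted p 0.353, limma) and MRTO4 by 0.12 (adjusted p 0.568). NHP2 and GAR1, called against control with siCcnf+siNipp1 and not with siOct4, differed by 0.15 (adjusted p 0.262) and 0.19 (adjusted p 0.128), and UTP18 by 0.16 (adjusted p 0.609). POLR1C, NOLC1 and RRP12 did not pass at 0.24, 0.31 and -0.32 and did with the block (adjusted p 0.0413, 0.0351 and 0.0451).

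**Figure D4:**
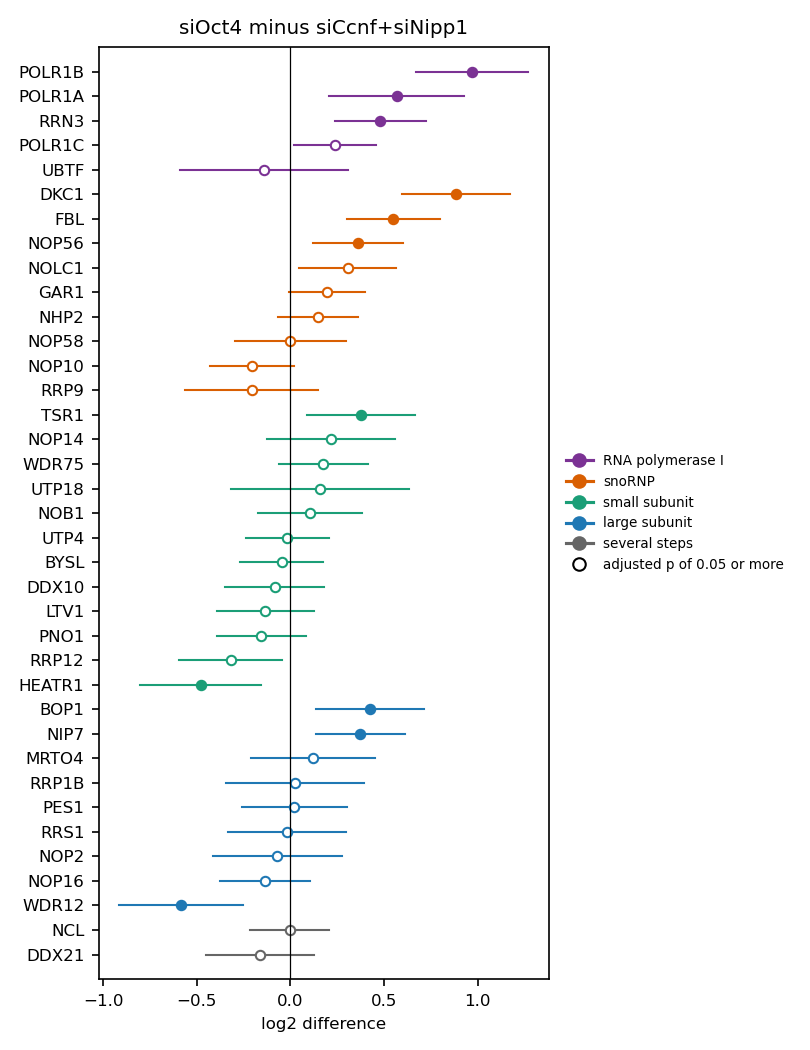
Each row is 1 of the 37 genes, and points give the log2 difference of siOct4 minus siCcnf+siNipp1 with its 95% interval, coloured by step, open where the adjusted p was 0.05 or more. POLR1B (0.97) and DKC1 (0.88) lie farthest to the right, and WDR12 (-0.58) and HEATR1 (-0.48) farthest to the left.

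Against siRb1, siOct4 had 4 genes higher and 7 lower, beside 16.6% and 16.8% of all genes tested, and siCcnf+siNipp1 had 3 higher and 11 lower, beside 17.6% and 18.4%. With median scaling these became 2 and 4, beside 18% and 11.5% of all genes, and 1 and 6, beside 16.7% and 14%. The siOct4 total of 11 became 6 without siOct4 replicate 3 or siRb1 replicate 3 and 7 without siOct4 replicate 2. The siCcnf+siNipp1 total of 14 became 7 without siCcnf+siNipp1 replicate 3, 8 without siCcnf+siNipp1 replicate 2 or siRb1 replicate 1, and 9 without siRb1 replicate 2. That total of 14 includes POLR1A, called lower with siCcnf+siNipp1, which passed the detection filter only through the other groups. With siCcnf+siNipp1, FBL was lower than with siRb1 at -0.86 (adjusted p 0.000213, limma), BOP1 at -0.93 (adjusted p 0.00034), DKC1 at -0.74 (adjusted p 0.00127), NOP56 at -0.60 (adjusted p 0.00155) and RRP9 at -0.62 (adjusted p 0.0111), and RRP12 was higher at 0.61 (adjusted p 0.00314). With siOct4, RRP9 was lower than with siRb1 at -0.83 (adjusted p 0.00254), HEATR1 at -0.75 (adjusted p 0.00267) and WDR12 at -0.61 (adjusted p 0.0094). These 9 calls held under all alternatives tried.

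TSR1 was higher with siOct4 than with siRb1 at 0.53 (adjusted p 0.00946, limma), lost when its probes were averaged (adjusted p 0.16). DDX21 was higher with siCcnf+siNipp1 than with siRb1 at 0.43 (adjusted p 0.0249), lost under 5 alternatives, among them leaving out siRb1 replicate 1 or 2 or siCcnf+siNipp1 replicate 2 or 3 (adjusted p 0.0509 to 0.103). Blocking on replicate number added NOP58, FBL, PNO1 and DDX21 to the siOct4 calls (adjusted p 0.0116, 0.0358, 0.0214 and 0.0357). It added NOP58 and UTP18 to those of siCcnf+siNipp1 (adjusted p 0.0108 and 0.0143).

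The wider pathway was read from 135 further genes of the same steps and the RNA exosome, of which 130 were tested and ESF1, DDX18, TMA16, MPHOSPH6 and C1D were not. These further genes were also listed with earlier results of these data known. With siOct4, 40 of 130 fell (30.8%) and 9 rose (6.92%), and with siCcnf+siNipp1 47 fell (36.2%) and 4 rose (3.08%), beside the 16.6%, 17.6%, 19.3% and 19% of all genes given above. The median difference was -0.23 with siOct4, -0.25 with siCcnf+siNipp1 and -0.10 with siRb1. With siRb1, 3 fell (2.31%) and 0 rose, beside the 1.74% and 2.96% of all genes. Each of these counts of lower genes includes TCOF1, which passed the detection filter only through the control arrays. The 9 that rose with siOct4 became 5 with median scaling and 4 without control replicate 2. The 4 that rose with siCcnf+siNipp1 became 1 with median scaling, 2 without control replicate 2 or siCcnf+siNipp1 replicate 2 or 3, and 8 with the block. The 3 that fell with siRb1 became 1 without any 1 control array, siRb1 replicate 1, siOct4 replicate 2 or 3 or siCcnf+siNipp1 replicate 1, and 0 without siRb1 replicate 3. By step with siOct4, 16 of 51 large subunit, 12 of 40 small subunit, 5 of 16 RNA polymerase I, 5 of 12 exosome and 2 of 11 snoRNP genes fell. With siCcnf+siNipp1 the counts in that order were 13, 17, 4, 6 and 7.

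The 4 genes with the smallest p-values among those lower with siOct4 were POLR1D at -0.94 (adjusted p 7.59e-05, limma), POLR2E at -1.52 (adjusted p 0.000106), NOL9 at -1.28 (adjusted p 0.00028) and POLR1E at -0.998 (adjusted p 0.000446). POLR1D and POLR2E are shared polymerase subunits, POLR1E is a polymerase I subunit and NOL9 is a kinase of large subunit rRNA processing. POLR1D was not called when its kept probes were averaged (adjusted p 0.158). The 4 higher were RIOK3 at 0.52 (adjusted p 0.00218), TAF1C at 0.62 (adjusted p 0.00284), NMD3 at 0.64 (adjusted p 0.00647) and UTP25 at 0.57 (adjusted p 0.00648). TAF1C belongs to the promoter factor of polymerase I, NMD3 carries the large subunit out of the nucleus, RIOK3 is a kinase found on small subunit precursors and UTP25 is a processome protein.

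With siCcnf+siNipp1 the 4 lower were UTP11 at -0.86 (adjusted p 0.000165, limma), TSR2 at -0.75 (adjusted p 0.000283), TCOF1, undetected outside control and at least 1.17-fold lower (adjusted p 0.000292), and EXOSC2 at -0.84 (adjusted p 0.000329). TCOF1 encodes treacle, which supports polymerase I transcription. TCOF1 passed the detection filter only through the control arrays. A call of lower was thus the only one open to it, and its p-values are no independent support. EXOSC2 encodes a subunit of the exosome, and UTP11 a processome protein. The 4 higher were RIOK3 at 0.68 (adjusted p 0.0004), UTP25 at 0.49 (adjusted p 0.0124), ZNF622 at 0.40 (adjusted p 0.0184) and SDAD1 at 0.41 (adjusted p 0.0278). UTP25, ZNF622 and SDAD1 lost the call with median scaling (adjusted p 0.0679, 0.168 and 0.185). ZNF622 lost it without control replicate 2 or siCcnf+siNipp1 replicate 2 or 3 (adjusted p 0.0515 to 0.0811), and SDAD1 without control replicate 2 or 3 or any 1 siCcnf+siNipp1 array (0.0504 to 0.0952).

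The 3 lower with siRb1 were POLR2E at -0.95 (adjusted p 0.0112, limma), TCOF1 at least 1.21-fold lower (adjusted p 0.0444) and NOC4L at -0.54 (adjusted p 0.0487). POLR2E lost the call without siRb1 replicate 3 (adjusted p 0.0538). NOC4L lost it under 11 of 21 alternatives, among them leaving out any 1 control or siRb1 array, siCcnf+siNipp1 replicate 1 or siOct4 replicate 2 or 3 (adjusted p up to 0.158). TCOF1 lost it under 15 of 20, among them leaving out any 1 control or siCcnf+siNipp1 array, siRb1 replicate 1 or 3 or siOct4 replicate 2 or 3 (adjusted p up to 0.139). Here too TCOF1 entered the test only through its control arrays, so it could only be called lower.

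The E-box CACGTG, which reads the same on both strands, was found in 12 of 31 measured genes with a promoter entry (38.7%). It was found in 26 of 112 other pathway genes (23.2%), 920 of 8760 of all genes tested (10.5%) and 2030 of 27305 RefSeq promoters of the same 300 bases (7.43%). The genes that fell with siOct4 or siCcnf+siNipp1 held it in 6 of 19 (31.6%) and the measured genes that did not in 6 of 12 (50%). Over all 36 listed genes with an entry, 15 promoters held 17 E-boxes, 14 of them within 40 bases of the start. Positions were not counted in other promoters, so whether this placing is particular to these genes was not tested. None of the 5 RNA polymerase I genes held an E-box. The E2F sequences TTCCCGC and TTGGCGC, searched on both strands, were in 4 of the 31 measured genes (12.9%) and 15% of all genes tested. A match describes the letters in the window and does not show binding.

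**Figure D5:**
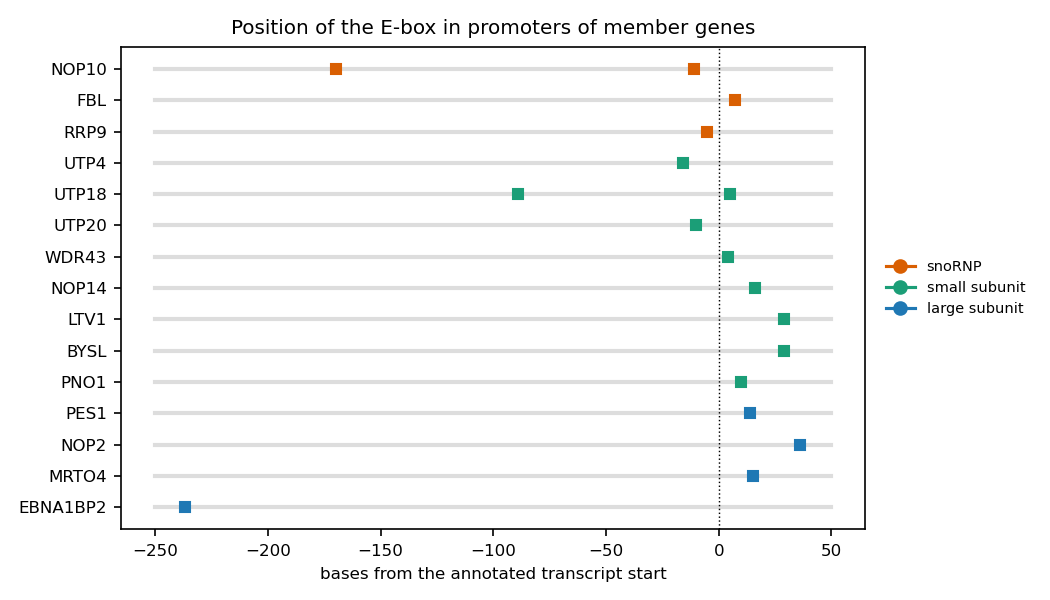
Each row is 1 listed gene whose promoter holds CACGTG, and each point marks the first base of an E-box in bases from the annotated transcript start, coloured by step. Of 17 E-boxes, 14 lie within 40 bases of the start. Positions in other promoters were not counted.

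MYC itself read 13.58, 12.65 and 13.07 in control, 13.52, 13.19 and 13.14 with siOct4, 13.45, 13.25 and 13.18 with siCcnf+siNipp1, and 13.20, 12.49 and 12.87 with siRb1. All groups overlapped, and the controls spanned the widest range. The log2 differences from control were 0.18 (95% interval -0.32 to 0.68, adjusted p 0.582, limma), 0.19 (-0.31 to 0.70, adjusted p 0.543) and -0.25 (-0.75 to 0.26, adjusted p 0.642). MYCN was not detected on enough arrays to be tested.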

How the data were processed

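Total RNA from 12 OVCAR-3 samples was measured on bead arrays. The deposited table gives a linear signal intensity and a detection p-value per probe, per the file headers, and the values are not background-subtracted. The authors also deposited normalized intensities for 47303 of the probes, by a method not named. The arrays were read in GenomeStudio, per the submitters' processing notes. The platform table names exactly 1 gene for 30102 probes, several for 8 and none for 17212; gene identifiers matched the RefSeq gene table for 30063, which changed 0 symbols.

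From the deposited intensities, log2 values were computed in R 4.3.3 with neqc of limma 3.58.1 (background from detection p-values, offset 16, quantile normalization). For a gene with several passing probes, the brightest on average stood for it. A model of 4 group means over all 12 arrays (8 residual and 3.85 prior degrees of freedom) gave 6 two-sided contrasts and the F test, adjusted by Benjamini-Hochberg over 10873 genes. The calculation was tried on simulated data with independent noise on each array, without the pairing of samples or a detection floor. That checks how the calculation runs and does not bear on the calls above. If all 3 arrays of the lower group missed a probe, the fold is a bound: each such array enters with the probe's signal or that array's lowest detected signal, whichever is larger. The number of arrays limits the precision. Promoters were searched in Python 3.11.15.

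The members and gene lists were chosen with earlier results of these data known. Array values were set for the 3 genes per step with the smallest F-test p (2 for RNA polymerase I and for several steps), and 4 other pathway genes named in each direction by smallest p. Samples with the same replicate number deviated together: over genes, all 18 such pairs of different groups correlated at 0.107 to 0.419, other pairs at -0.296 to 0.027, so the numbers pair the samples. The pairing comes from the replicate numbers in the sample titles. Alternatives were no background correction, median scaling, the authors' table, other filters on dim probes, mean of probes, only the groups compared, a variance trend, the replicate block and each array left out.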

Additional observations from a re-analysis of the deposited data

How the results depend on the processing

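Against control, 27 of 111 gene results were called; 17 kept the call under all 21 alternatives, 10 lost it under at least 1, 19 of the 84 others gained it under at least 1, and 0 called values reversed. Between knockdowns, 14 of 36 calls were kept throughout and 22 were lost somewhere, and 0 reversed. The count for siRb1 against control was 0, and became 1 without background correction and 2 with the replicate block. For siOct4 against siRb1 the count of 11 became 6 with median scaling, 7 with no filter on dim probes and 7 with only the 2 groups compared. For siCcnf+siNipp1 against siRb1 the count of 14 became 7 with median scaling, and for siOct4 against siCcnf+siNipp1 11 became 6 with only the 2 groups compared. The cause was not tested, and the fits of only the 2 groups compared also use fewer arrays. Leaving out 1 array at a time gave 15 to 22 genes by the F test, 7 to 13 for siOct4 and 11 to 18 for siCcnf+siNipp1 against control, 0 for siRb1 against control, 5 to 11 for siOct4 against siCcnf+siNipp1, 6 to 12 for siOct4 against siRb1 and 7 to 15 for siCcnf+siNipp1 against siRb1. The lowest F-test count came without siOct4 replicate 2. The replicate block moved the F-test count from 23 to 28 and lost 0 calls; beyond the block values given beside the results it changed no other call in the 6 comparisons. Of other pathway genes, the count lower with siOct4 ran from 28 (without control replicate 3 or siOct4 replicate 3, where 12.4% and 13.1% of all genes were lower) to 50 (block, 21.3%), with siCcnf+siNipp1 from 37 (without control replicate 2 or siCcnf+siNipp1 replicate 2 or 3, 15.1 to 15.4%) to 60 (block, 24.4%), and with siRb1 from 0 (without siRb1 replicate 3, 0.736%) to 6 (block, 4.46%). NPM1 and UTP20, undetected on every array, have no value here, and POLR1A lies at the limit of detection.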

Other observations

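Probes of a gene did not always give the same value. For NOP14, a processome protein, the brighter probe differed from control by -0.19 with siOct4 and -0.41 with siCcnf+siNipp1, and the dimmer probe by -0.43 and -0.65, both of which passed in the fit over probes (adjusted p 0.0257 and 0.0028, limma). On the dimmer NOP14 probe siRb1 also lay below control on every array, at -0.44 (adjusted p 0.0904). For TSR1, the brighter probe differed by 0.26 with siOct4 and -0.12 with siCcnf+siNipp1. The dimmer TSR1 probe, detected on 6 arrays and on 0 of 3 with siCcnf+siNipp1, was at least 1.154-fold lower there (adjusted p 0.0306, limma). It passed the detection filter only through other groups, so lower was the only call open to it there. The brighter UBTF probe stood at -0.29 with siOct4 and the other at 0.10, neither of which passed.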
